A study of Homo sapiens with 32 samples.

Results

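The genes described here are known mainly from liver and intestine. They are 3 small tetraspan genes (TM4SF20, TM4SF4 and TM4SF5), both subunits of a bile acid exporter (SLC51A and SLC51B) and the nuclear receptors NR5A2, HNF4A and HNF4G. Each was taken as every probe set whose gene symbol in the platform's annotation is exactly one of these 8 names, which gave 11 of the 54675 probe sets and covered 7 of the 8 genes. HNF4A was not analysed here. The genes were picked with results from A549 cells at 24 h known, where TM4SF20 and SLC51B stood among the largest differences. The values of that comparison are therefore given as a description with no test.

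The study measured RNA of 2 human lung cancer lines on Affymetrix arrays after exposure to a gamma-secretase inhibitor (GSI). The 8 groups were A549 cells with GSI for 24 h and with vehicle for 24 h, A549 cells with GSI for 6 h and with vehicle for 6 h, and the same 4 groups of H460a cells, with 4 arrays in each. The labels name the inhibitor RO4929097. The series text gives its dose as 2 µM, spells it RP4929097-001-003 and calls the second line H460. A549 came from a lung adenocarcinoma and H460 from a large cell lung carcinoma. No label says that the 4 replicates of a group came from separate cultures, and p-values rest on the spread among arrays that may be technical repeats. A mention of embryos in the sample descriptions has no counterpart in the other labels.

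Gamma-secretase cuts activated Notch receptors inside the membrane and so frees the Notch intracellular domain, which joins the DNA-binding protein RBPJ to switch on target genes. The tetraspans described here belong to the L6 family of proteins that cross the membrane several times, and TM4SF4 and TM4SF5 are best known from liver and gut epithelium. SLC51A and SLC51B encode organic solute transporter alpha and beta, which work as a pair to move bile acids out of enterocytes and hepatocytes into the blood. The bile acid receptor FXR induces both subunits in those tissues. NR5A2, also called LRH-1, is a nuclear receptor of liver, intestine and pancreas that binds DNA as a monomer and acts on bile acid synthesis genes. HNF4G is a close relative of HNF4A, a master regulator of hepatocyte and enterocyte genes.

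Promoters are shown for the 4 of these genes with the largest differences between GSI and vehicle in A549 at 24 h, and for SLC51A as the partner of SLC51B. They were searched for short motifs of factors named above and of HNF1. Each sequence runs from 250 bases before to 50 bases after a RefSeq transcription start on GRCh38.p14, 5′ to 3′ on the gene's strand. The windows are chr2:227379257-227379556 on the minus strand for TM4SF20, chr3:149474447-149474746 on the plus strand for TM4SF4 and chr17:4771636-4771935 on the plus strand for TM4SF5. For SLC51B the window is chr15:65045137-65045436 and for SLC51A chr3:196216284-196216583, both on the plus strand. Capitals mark matches to a searched motif on either strand, so a match on the opposite strand appears as its reverse complement.
TM4SF20: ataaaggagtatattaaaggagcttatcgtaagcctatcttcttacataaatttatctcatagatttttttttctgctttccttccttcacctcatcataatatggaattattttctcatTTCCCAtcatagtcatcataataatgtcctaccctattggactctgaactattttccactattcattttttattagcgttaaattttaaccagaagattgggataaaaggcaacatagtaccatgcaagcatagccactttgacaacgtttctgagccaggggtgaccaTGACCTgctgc
TM4SF4: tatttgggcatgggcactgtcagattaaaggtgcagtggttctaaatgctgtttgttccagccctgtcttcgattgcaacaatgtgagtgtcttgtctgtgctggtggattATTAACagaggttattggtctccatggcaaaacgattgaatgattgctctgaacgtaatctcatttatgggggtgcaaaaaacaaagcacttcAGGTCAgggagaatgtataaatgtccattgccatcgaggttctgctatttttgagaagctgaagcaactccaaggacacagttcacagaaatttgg
TM4SF5: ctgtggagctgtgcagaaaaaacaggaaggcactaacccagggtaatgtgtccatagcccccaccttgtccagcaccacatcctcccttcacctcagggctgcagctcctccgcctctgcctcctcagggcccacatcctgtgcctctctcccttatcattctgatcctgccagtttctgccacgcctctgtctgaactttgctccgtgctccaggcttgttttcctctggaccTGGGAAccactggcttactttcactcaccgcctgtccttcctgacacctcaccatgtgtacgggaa
SLC51B: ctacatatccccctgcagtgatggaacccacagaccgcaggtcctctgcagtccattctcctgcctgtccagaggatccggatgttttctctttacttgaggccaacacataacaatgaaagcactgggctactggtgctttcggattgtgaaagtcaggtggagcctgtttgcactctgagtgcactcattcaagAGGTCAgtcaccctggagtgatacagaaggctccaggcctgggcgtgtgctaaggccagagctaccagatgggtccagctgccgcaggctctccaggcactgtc
SLC51A: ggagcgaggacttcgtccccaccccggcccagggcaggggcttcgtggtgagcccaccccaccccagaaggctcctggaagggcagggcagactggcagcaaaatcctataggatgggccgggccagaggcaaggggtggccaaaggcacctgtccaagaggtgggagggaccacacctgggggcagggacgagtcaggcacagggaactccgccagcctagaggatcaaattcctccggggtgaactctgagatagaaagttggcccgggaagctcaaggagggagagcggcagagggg
The nuclear receptor half-site AGGTCA was found in TM4SF20 (opposite strand, bases 40 to 45 after the start), in TM4SF4 (bases -46 to -41 relative to the start) and in SLC51B (bases -54 to -49). It was also in the earlier of 2 NR5A2 windows, chr1:200027460-200027759 on the plus strand, at bases -84 to -79. The RBPJ core TGGGAA was found in TM4SF20 (opposite strand, bases -130 to -125) and in TM4SF5 (bases -16 to -11). The HNF1 half-site GTTAAT lay in TM4SF4 and in the later NR5A2 window, on the opposite strand in both. Neither the longer NR5A half-site AAGGTCA, which would contain AGGTCA, nor the HNF4 core CAAAGTCCA was in any of these windows, and SLC51A held none of the 5 motifs. Among 35116 RefSeq promoter windows of the same length, 13.8% held AGGTCA, 24% TGGGAA, 6.88% GTTAAT, 3.92% AAGGTCA and 0.384% CAAAGTCCA on either strand. A match is a run of letters and not a measured binding site.

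HES1, a classical Notch target, served as the check of the treatment labels. It differed by -2.18 (log2) between GSI and vehicle in A549 at 24 h and by -1.63 ± 0.13 (SE) at 6 h (adjusted p = 8.67e-10), with no overlap of arrays at either time. In H460a the differences were -0.29 at 24 h (adjusted p = 0.823) and -0.35 at 6 h (adjusted p = 0.324), and the arrays overlapped. HES1 read 75.7 to 117 on the H460a vehicle arrays, against 762 to 1087 on those of A549. The check thus bore out the labels in A549 only, and action of the inhibitor in H460a was not shown by it. Mean intensity was 496 to 589 on the A549 GSI arrays at 6 h and 468 to 496 on the A549 vehicle arrays at 6 h, against 570 to 613 on the other 24 arrays. H460a vehicle array 3 at 6 h also stood apart, with a beta-actin signal 2.19 higher (log2) at the 3′ than at the 5′ end of the transcript, against 0.14 to 0.42 on the other arrays. Of 6 epithelial markers, 3 were above the array median on all arrays of A549 (CDH1, KRT8 and KRT18) and 3 on all of H460a (KRT8, KRT18 and KRT19). None of 7 enterocyte markers was, in either line, and of 7 hepatocyte markers only TTR and CYP3A4. By the same rule 5 of 7 alveolar type II markers were above it in A549 and 4 of 7 in H460a, as were 3 of 6 and 4 of 6 fibroblast markers and, in each line, 2 of 6 leukocyte and endothelial markers. Summed hepatocyte markers ranged over 700.2 to 898 in A549 and 714 to 834 in H460a, and summed enterocyte markers over 516 to 591 in A549 and 477 to 533 in H460a. In such bulk RNA, fewer cells with a transcript and less of it per cell cannot be told apart.

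With GSI for 24 h, A549 cells had more RNA of all 3 tetraspan genes and of SLC51B. NR5A2 (0.20, log2), SLC51A (0.09) and HNF4G (0.03) differed less, with overlapping arrays on each gene's brightest probe set. The differences were 1.48 for TM4SF20 (2.79-fold), 0.71 for SLC51B (1.64-fold), 0.61 for TM4SF5 (1.53-fold) and 0.55 for TM4SF4 (1.46-fold), all on the log2 scale. In each of these 4 of 7 genes every GSI array lay above every vehicle array. Over all 19775 genes, 7.1% had all GSI arrays above all vehicle arrays and 2.21% passed adjusted p under 0.05 in either direction, and nothing is read from these shares because the genes were picked with this comparison known. The median difference of the 7 genes was 0.55, and that of all genes 0.0070.

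After 6 h, 3 of the 7 genes rose in A549 cells, namely TM4SF20, NR5A2 and SLC51B, where 11.6% of all genes rose and 13.1% changed in either direction (limma, Benjamini-Hochberg over all genes). The genes' median difference was 0.05, beside 0.02 for all genes. Of the 3, TM4SF20 alone passed after quantile normalization over all arrays, which left 557 genes called, 265 of them higher, in place of 2600, 2301 of them higher. Without the A549 GSI arrays 3 and 4, whose mean intensities were the highest of the 6 h A549 arrays, none passed and 10 of all genes did, while the differences were 0.42 for TM4SF20, 0.48 for NR5A2 and 0.21 for SLC51B. Mean intensity moves with treatment in this comparison, and its part in the result was not tested.

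In H460a cells none of the 7 genes passed at either time in limma. At 24 h, 2 of them had an unadjusted p under 0.05, both higher with GSI (SLC51B and TM4SF20), as did 5.79% of all genes (3.25% as higher), while 0.00506% passed after adjustment. At 6 h, 3 had an unadjusted p under 0.05, all lower with GSI (NR5A2, TM4SF4 and SLC51A), as did 11.1% of all genes (4.25% as lower), while 0.0961% passed after adjustment. By other settings, array weights called 1 gene at each time and quantile normalization within each line called 1 at 24 h.

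**Figure D1:**
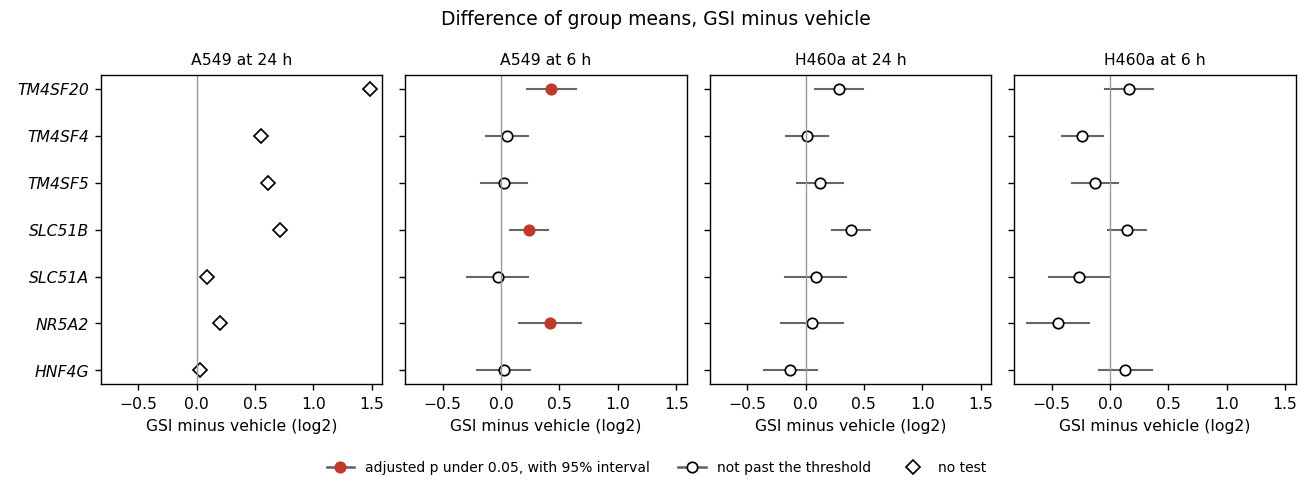
Difference between the means of 4 GSI and 4 vehicle arrays (log2, horizontal axis) for each gene's probe set with the highest mean, in the 4 combinations of line and time. Circles carry 95% intervals and are filled where the adjusted p is under 0.05, and diamonds for A549 at 24 h carry no test; TM4SF20 reaches 1.48 there and 0.29 in H460a at 24 h.

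TM4SF20, a tetraspan whose orientation in the membrane can be reversed by ceramide, had the highest difference towards GSI of all 19775 genes in A549 at 24 h. Its intensities were 358, 468, 406 and 481 on the GSI arrays at 24 h, against 135, 168, 152 and 157 on the vehicle arrays. The lowest GSI array was far above the highest vehicle array. At 6 h they were 139.9, 146, 148 and 143 on the GSI arrays, against 105, 120.3, 91.5 and 113 on the vehicle arrays. Here too the groups did not overlap, the GSI arrays lay close together, and TM4SF20 rose by 0.43 ± 0.10 (log2 ± SE, 95% interval 0.22 to 0.64, adjusted p = 0.0083). This rise ranked 200th from the highest of all genes, and the call was lost without GSI array 3 (adjusted p = 0.0562) or vehicle array 3 (adjusted p = 0.0591). In the A549 description, the 24 h difference exceeded the 6 h difference by 1.05.

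In H460a, TM4SF20 read 193, 223, 191 and 169 with GSI for 24 h, against 168, 161, 164 and 141 with vehicle. All GSI arrays lay above all vehicle arrays, the lowest of them by a narrow margin, with a difference of 0.29 ± 0.10 (interval 0.08 to 0.49) that did not pass (adjusted p = 0.595) and ranked 80th from the highest. At 6 h the values were 119, 118, 134 and 106 with GSI, against 94.0, 106, 127 and 98.7 with vehicle, and the groups overlapped (0.17 ± 0.10, adjusted p = 0.551). The vehicle array at 127 is array 3, the one with the beta-actin signal noted above, and without it this difference was 0.25. The effect in A549 exceeded that in H460a by 1.19 at 24 h, not tested because A549 at 24 h chose the gene. At 6 h it did so by 0.27 ± 0.14 (adjusted p = 0.394), or by 0.18 without that array.

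Without inhibitor TM4SF20 rose with time in both lines. Vehicle cells at 24 h exceeded those at 6 h by 0.51 ± 0.10 in A549 (adjusted p = 0.000125) and by 0.58 ± 0.10 in H460a (adjusted p = 2.53e-05), with no overlap of arrays. The vehicle levels of the lines did not differ beyond their spread, and A549 minus H460a was -0.05 (interval -0.26 to 0.15) at 24 h and 0.01 (interval -0.19 to 0.22) at 6 h. The order of the 8 groups was A549 GSI at 24 h (428 ± 57.3, mean ± SD, n = 4), H460a GSI at 24 h (194 ± 22.5), both vehicle groups at 24 h, A549 GSI at 6 h, H460a GSI at 6 h and both vehicle groups at 6 h. Apart from the first step, the ranges of neighbours in that order touched or overlapped, except between the GSI and vehicle groups of H460a at 24 h and between the 6 h GSI groups of A549 and H460a.

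TM4SF4, a tetraspan of liver and intestinal epithelium, was brighter in A549 than in H460a on every array. With GSI for 24 h A549 arrays read 363, 397, 411 and 401, against 251, 269, 267 and 286 with vehicle. At 6 h they read 152, 162, 148 and 155 with GSI, against 149, 152, 147 and 148 with vehicle. The groups stood apart at 24 h and overlapped at 6 h, where the difference was 0.05 ± 0.09 (adjusted p = 0.773). In H460a all 16 arrays lay between 52.6 and 81.4, below every A549 array. There the GSI arrays at 6 h (56.5 to 71.0) lay just below the vehicle arrays (71.8 to 81.4), a difference of -0.24 ± 0.09 that did not pass (adjusted p = 0.324), and at 24 h the difference was 0.01 ± 0.09.

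In vehicle, A549 exceeded H460a in TM4SF4 by 2.07 ± 0.09 at 24 h (4.20-fold, adjusted p = 3.07e-20) and by 1.00 ± 0.09 at 6 h (2.00-fold, adjusted p = 7.48e-12). The lines differed in sign with time, a difference not itself tested. Vehicle cells at 24 h exceeded those at 6 h by 0.85 ± 0.09 in A549 (adjusted p = 6.00e-09), while in H460a the difference was -0.23 ± 0.09, at the threshold (adjusted p = 0.0492). The H460a call was lost on leaving out any of 7 of the 8 arrays compared, all but vehicle array 4 at 24 h (adjusted p up to 0.213).

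TM4SF5, a tetraspan studied as a promoter of liver tumour growth, read 155, 165, 187 and 185 in A549 with GSI for 24 h, against 109, 100.3, 109.9 and 135 with vehicle. The vehicle array at 135 was the nearest to the GSI arrays, and the groups did not overlap. At 6 h the values were 123, 126, 120.0 and 141 with GSI, against 112, 128, 130.0 and 132 with vehicle. They interleaved, with a difference of 0.02 ± 0.10 (adjusted p = 0.920). In H460a the 16 arrays ranged over 75.8 to 115, with differences of 0.12 ± 0.10 at 24 h (adjusted p = 0.973) and -0.12 ± 0.10 at 6 h (adjusted p = 0.665). Unlike TM4SF20 and TM4SF4, TM4SF5 gave no call between 24 h and 6 h in vehicle (-0.15 ± 0.10 in A549, adjusted p = 0.209; -0.08 ± 0.10 in H460a, adjusted p = 0.603). A549 exceeded H460a in vehicle by 0.39 ± 0.10 at 24 h (adjusted p = 0.000963) and by 0.46 ± 0.10 at 6 h (adjusted p = 0.000124), without overlap.

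SLC51B, the beta subunit of the bile acid exporter, had the 11th highest difference towards GSI of all genes in A549 at 24 h. The arrays read 652, 662, 695 and 581 with GSI for 24 h, against 383, 359.5, 438 and 400.0 with vehicle. At 6 h they read 269, 246, 275 and 259 with GSI, against 229.9, 211, 209 and 238 with vehicle. Neither pair of groups overlapped, and at 6 h SLC51B rose by 0.24 ± 0.08 (interval 0.08 to 0.41, adjusted p = 0.0438). This rise ranked 2552nd from the highest of all genes, where 2301 genes were called higher. The call was lost without GSI array 1, 3 or 4 or vehicle array 2 or 3 (adjusted p 0.0641 to 0.169). It was also lost after quantile normalization over all arrays (0.20, adjusted p = 0.138).

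In H460a, SLC51B read 318, 340.5, 288 and 286 with GSI for 24 h, against 223, 243, 243 and 230.0 with vehicle. Every GSI array was above every vehicle array. The difference of 0.39 ± 0.08 (interval 0.23 to 0.55, 1.31-fold) ranked 18th from the highest of 19775 genes and did not pass (adjusted p = 0.188), with adjusted p from 0.0120 to 0.728 over the other settings and from 0.0694 to 0.412 on leaving out single arrays. At 6 h the arrays read 291, 318, 282 and 309 with GSI, against 308, 294, 229 and 259 with vehicle, and overlapped (0.15 ± 0.08, adjusted p = 0.5003). The vehicle array at 229 is array 3, the one with the beta-actin signal noted above, and without it the 6 h difference was 0.07. The effect in A549 exceeded that in H460a by 0.32 at 24 h, with no test, and by 0.10 ± 0.11 at 6 h (adjusted p = 0.739).

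In SLC51B the lines had the opposite order at 24 h and at 6 h. In vehicle, A549 minus H460a was 0.75 ± 0.08 at 24 h (adjusted p = 1.04e-09) and -0.29 ± 0.08 at 6 h (adjusted p = 0.00264). Vehicle A549 cells at 24 h exceeded those at 6 h by 0.83 ± 0.08 (1.78-fold, adjusted p = 2.12e-09), while in H460a the difference was -0.21 ± 0.08 (adjusted p = 0.0511), or -0.29 without H460a vehicle array 3 at 6 h (adjusted p = 0.00457). Over the 8 groups SLC51B was highest in A549 GSI at 24 h (648 ± 48.1, n = 4), then A549 vehicle at 24 h (395 ± 33.0), and lowest in A549 vehicle at 6 h (222 ± 14.4). The 5 groups between, from H460a GSI at 24 h (308 ± 26.0) to H460a vehicle at 24 h (235 ± 9.76), lay closer together. Neighbours in this order did not overlap at the 2 highest steps or between A549 GSI at 6 h and H460a vehicle at 24 h, and overlapped elsewhere.

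**Figure D2:**
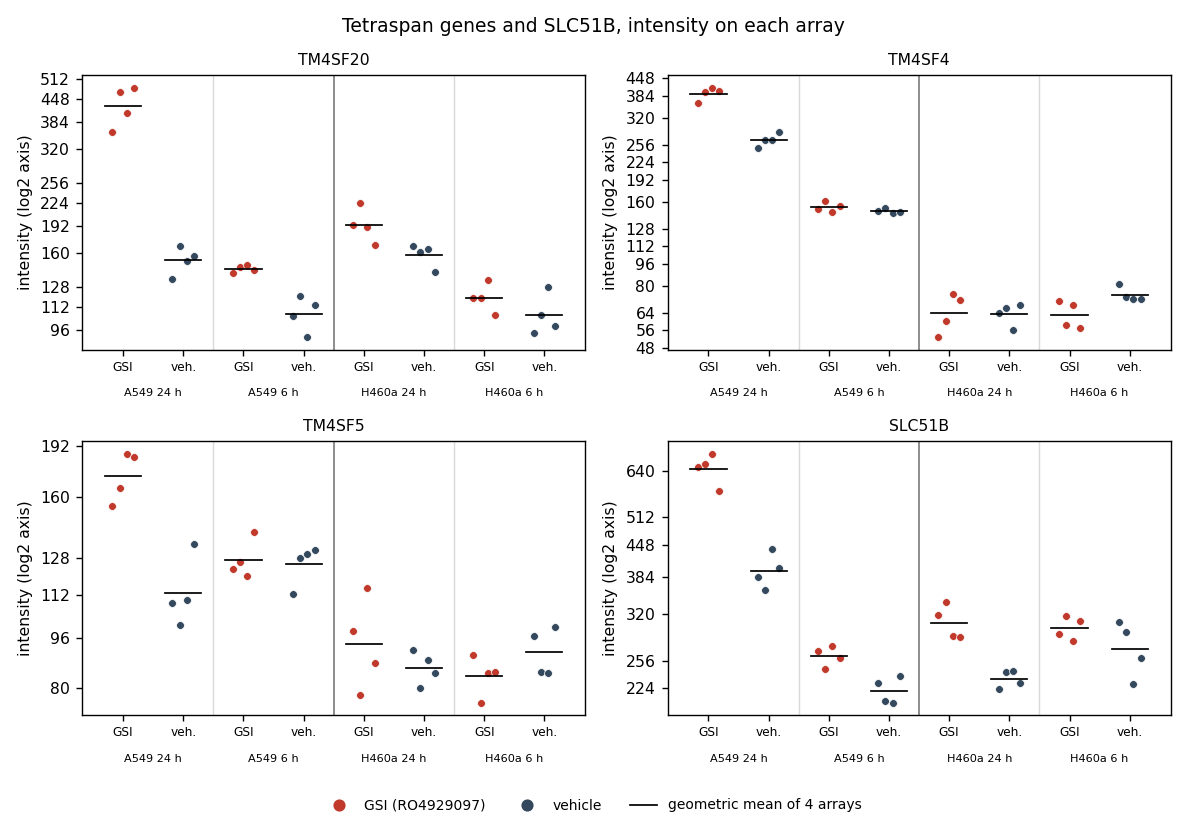
Intensity on each of the 32 arrays (points, log2 axis) of TM4SF20, TM4SF4, TM4SF5 and SLC51B, with lines at the geometric mean of each group of 4. In A549 at 24 h all GSI points lie above all vehicle points in each panel, and TM4SF4 separates the lines, with every H460a array at or under 81.4.

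SLC51A, the alpha subunit without which SLC51B does not transport bile acids, stayed near the bottom of the array. Its intensity ranged over 18.7 to 36.7 on the 32 arrays, between the 7.84th and 20.6th percentile of probe sets. A549 arrays ranged over 18.7 to 33.6 with GSI for 24 h, against 22.0 to 25.7 with vehicle, and over 23.7 to 34.0 with GSI for 6 h, against 27.0 to 31.4 with vehicle. The difference was 0.09 in A549 at 24 h and -0.03 ± 0.13 at 6 h (adjusted p = 0.916), and in H460a 0.09 ± 0.13 at 24 h (adjusted p = 1.00) and -0.27 ± 0.13 at 6 h (adjusted p = 0.435). The lines gave no call in vehicle (-0.02 at 24 h and 0.01 at 6 h, intervals within -0.28 and 0.27). At this level a difference may not have been detectable.

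NR5A2 was measured by 4 probe sets, of which 3 separated the lines. On 210174_at, the probe set with the highest mean, A549 arrays read 496, 621, 667 and 616 with GSI for 24 h, against 554, 448, 587 and 503 with vehicle. At 6 h they read 589.7, 530.1, 574 and 466 with GSI, against 387, 414, 379 and 428 with vehicle. The groups overlapped at 24 h, with a difference of 0.20, and stood apart at 6 h, where NR5A2 rose by 0.42 ± 0.13 (1.34-fold, adjusted p = 0.0300). Of the 7 genes it was the one with a smaller difference in A549 at 24 h than at 6 h. The call at 6 h was lost without GSI array 1, 3 or 4 or vehicle array 1 or 3 (adjusted p 0.0579 to 0.132). In A549 at 24 h, with no test, 208343_s_at gave 0.19 and its groups did not overlap. They overlapped on 208337_s_at (0.11) and on 1560469_at (-0.04).

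All 16 H460a arrays lay between 24.8 and 46.3 on 210174_at. In vehicle, A549 exceeded H460a by 4.10 ± 0.13 at 24 h (17.1-fold, adjusted p = 1.03e-23) and by 3.32 ± 0.13 at 6 h (9.98-fold, adjusted p = 4.37e-21). The other 2 bright probe sets gave 4.25 ± 0.12 (208343_s_at) and 2.53 ± 0.13 (208337_s_at) at 24 h, and 3.56 ± 0.12 and 2.43 ± 0.13 at 6 h. The fourth, 1560469_at, lay between 11.3 and 18.7 on all arrays. It gave 0.25 ± 0.08 at 24 h, past the threshold (adjusted p = 0.0128) and without overlap, and 0.12 ± 0.08 at 6 h (adjusted p = 0.260). The H460a values were near the bottom of the array's range, where part of an intensity is background.

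The effect of GSI on NR5A2 at 6 h differed between the lines on 210174_at, in the fit of each gene's brightest probe set. In H460a 210174_at read 40.7, 24.8, 26.4 and 28.5 with GSI for 6 h, against 42.1, 42.7, 31.4 and 46.3 with vehicle, a difference of -0.45 ± 0.13 (adjusted p = 0.219) with overlapping groups. These values are near the bottom of the array's range. The same H460a difference was -0.03 ± 0.13 on 208337_s_at, 0.09 ± 0.12 on 208343_s_at and -0.09 ± 0.08 on 1560469_at. The effect in A549 exceeded that in H460a by 0.87 ± 0.18 (interval 0.49 to 1.24, adjusted p = 0.0402), where 0.121% of all genes passed in either direction, 17 of 24 of them higher, or 17 of 40 after quantile normalization. NR5A2 itself did not pass after quantile normalization (0.74, adjusted p = 0.0951), with the replicate number as a block (adjusted p = 0.0696), on the arrays of the 4 groups alone (adjusted p = 0.132), with all probe sets in one fit (adjusted p = 0.0908) or without A549 GSI arrays 3 and 4 (adjusted p = 0.154). Over the mean of its probe sets it passed at 0.46 (adjusted p = 0.0402). Without H460a vehicle array 3, noted above for its beta-actin signal, it passed at 0.99 (adjusted p = 0.0101). On the other 3 probe sets this excess was 0.25 to 0.37 and did not pass (adjusted p 0.345 to 0.378). The call was lost on leaving out any of 11 of the 16 arrays compared, namely A549 GSI array 3, H460a GSI arrays 2, 3 and 4, all 4 A549 vehicle arrays and H460a vehicle arrays 1, 2 and 4 (adjusted p up to 0.133). At 24 h, with no test, the excess on 210174_at was 0.14.

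In A549 at 6 h, 208343_s_at rose by 0.45 ± 0.12 (adjusted p = 0.0242 over all 41091 probe sets with 1 symbol, 7.34% of which passed), and 208337_s_at gave 0.35 ± 0.13 (adjusted p = 0.0964). The groups overlapped on both probe sets. On 208343_s_at the GSI arrays read 169, 171, 300 and 244, against 163, 179, 141 and 147 with vehicle. GSI arrays 1 and 2 thus lay within the vehicle range, and arrays 3 and 4, with the highest mean intensities, lay above it. In vehicle, 24 h exceeded 6 h in A549 by 0.37 ± 0.13 on 210174_at (adjusted p = 0.0199), and by 0.20 after quantile normalization (adjusted p = 0.242). That call was also lost without A549 vehicle array 3 at 24 h (adjusted p = 0.0748) or at 6 h (adjusted p = 0.0557). In H460a the same difference was -0.40 ± 0.13 (adjusted p = 0.0161). It was lost without vehicle array 1 or 2 at 24 h or array 4 at 6 h (adjusted p 0.0599 to 0.0706) and came to -0.12 over the mean of the probe sets (adjusted p = 0.223).

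**Figure D3:**
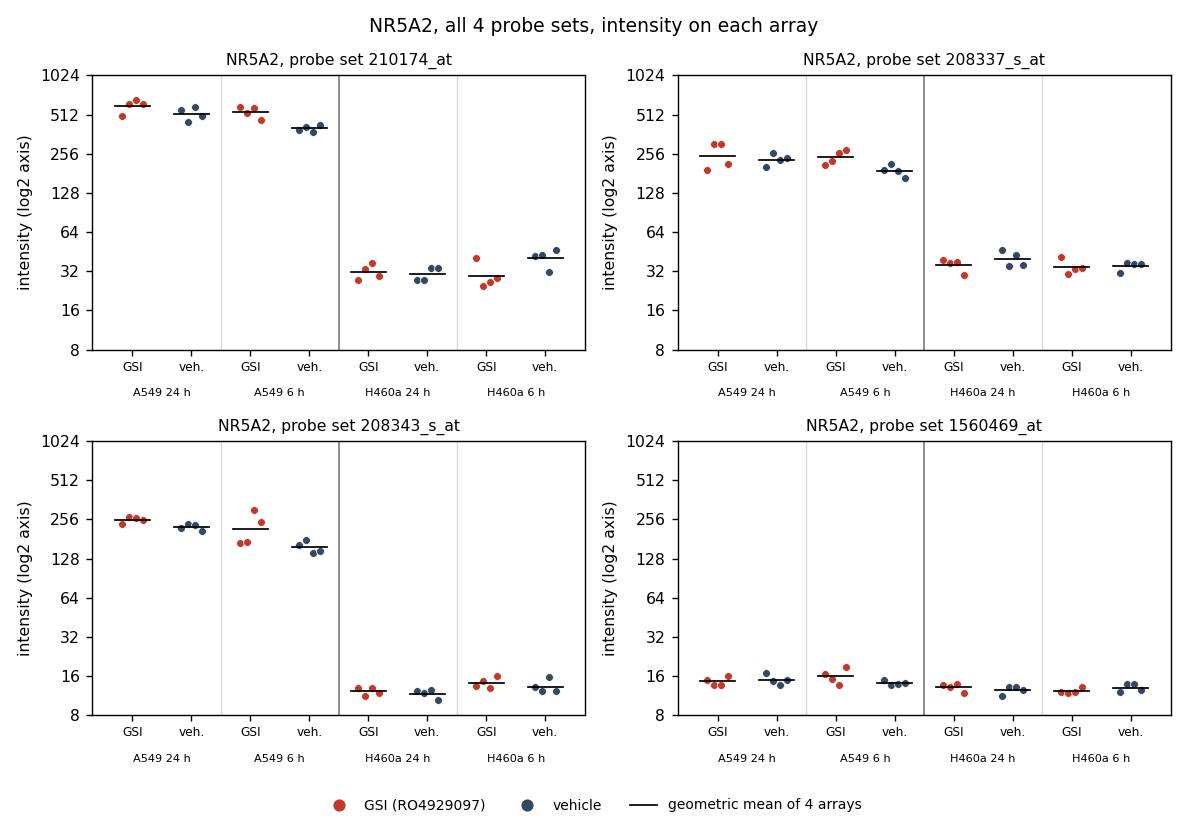
Intensity of the 4 NR5A2 probe sets on each of the 32 arrays (points, log2 axis, same range in each panel), with lines at the geometric mean of each group of 4. The A549 arrays lie above all H460a arrays on 3 of the probe sets, and 1560469_at stays between 11.3 and 18.7 throughout.

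HNF4G was dim on both of its probe sets. On 232271_at it ranged over 29.2 to 50.9 in A549 and 16.6 to 25.6 in H460a, so the lines did not overlap. In vehicle, A549 exceeded H460a by 0.82 ± 0.11 at 24 h (adjusted p = 1.17e-07) and by 0.58 ± 0.11 at 6 h (adjusted p = 3.13e-05). The other probe set, 207456_at, lay between 17.5 and 26.8 on all arrays and gave 0.12 ± 0.10 at 24 h and 0.15 ± 0.10 at 6 h, neither past the threshold. GSI against vehicle came to 0.03 in A549 at 24 h and 0.02 ± 0.11 at 6 h (adjusted p = 0.929), and to -0.13 ± 0.11 in H460a at 24 h (adjusted p = 0.983) and 0.13 ± 0.11 at 6 h (adjusted p = 0.700). Vehicle A549 cells at 24 h exceeded those at 6 h by 0.36 ± 0.11 (adjusted p = 0.00873). That call was lost without A549 vehicle array 3 at 24 h (adjusted p = 0.0619) and over the mean of both probe sets (0.11, adjusted p = 0.243).

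Counted over the 7 genes in vehicle, 5 rose between 6 and 24 h in A549 (TM4SF20, TM4SF4, SLC51B, NR5A2 and HNF4G), where 29.2% of all genes rose and 44.2% changed. These calls, and those between the lines at 24 h, share the A549 vehicle arrays at 24 h with the comparison the genes were picked on, so they are no independent support. After quantile normalization 4 of the 7 passed, and 3277 of the 7647 genes called were higher, against 5766 of 8731 without it. In H460a 1 of 7 rose (TM4SF20) and 2 fell (TM4SF4 and NR5A2), where 30.4% of all genes changed, 15.1% higher and 15.3% lower. Between the lines, A549 was higher in 5 of 7 genes at 24 h, where 46.9% of all genes differed and 25.2% were higher. At 6 h it was higher in 4 and lower in SLC51B, where 57.1% differed, 28.5% higher and 28.6% lower. TM4SF20 and SLC51A passed between the lines at neither time. Mean intensity was 468 to 496 on the A549 vehicle arrays at 6 h. It was 584 to 597 on those at 24 h and 595 to 602 on the H460a vehicle arrays at 6 h. It therefore moves with time in A549 and with line at 6 h, and its part in these calls was not tested.

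**Figure D4:**
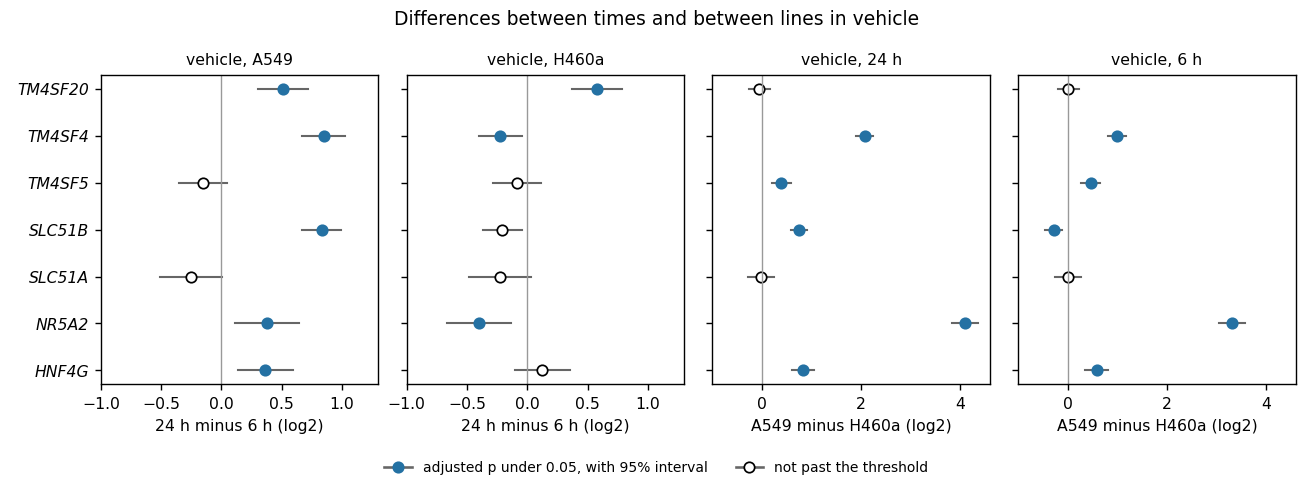
Differences in vehicle between 24 h and 6 h in each line and between A549 and H460a at each time (log2, horizontal axes with separate ranges for the 2 kinds of comparison), with 95% intervals, filled where the adjusted p is under 0.05. NR5A2 stands out between the lines at 4.10 and 3.32, and TM4SF20 lies near 0 between the lines while rising with time in both.

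Within A549, TM4SF20, TM4SF4 and SLC51B varied together most closely over the 16 arrays. Pearson's r of log2 values was 0.97 between TM4SF4 and SLC51B, 0.91 between TM4SF20 and SLC51B and 0.88 between TM4SF20 and TM4SF4, while SLC51A and SLC51B gave -0.38. In H460a the same pairs gave -0.20, -0.00014, -0.39 and -0.07. TM4SF5 was less close in A549, at 0.79 with TM4SF20, 0.61 with SLC51B and 0.57 with TM4SF4. With TM4SF20, TM4SF4 and SLC51B there, HNF4G gave 0.60 to 0.77 and NR5A2 0.61 to 0.70. These are descriptions, since the arrays share the treatment and time groups that move the genes and A549 at 24 h chose them. Among 5032 genes with an SD of at least 0.2 over the A549 arrays, those most like TM4SF20 were TSPAN4 (r = 0.98), GPRC5A (0.98) and RBP4 (0.97). Those most like SLC51B were PPL, SERPINI1 and ANG (each 0.98), and those most like SLC51A were LOC105374690 (0.85), CETP (0.77) and LINC02140 (0.74). SLC51A stayed near the bottom of the array, where part of an intensity is background, so nothing is read from its correlations.

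Lists of related genes were counted beside these members, with 107 of 119 listed genes measured. In A549 at 24 h, 2 of 26 genes of bile acid synthesis and transport passed, both higher with GSI, namely ACOX2, a peroxisomal oxidase of bile acid side chains (0.44), and ABCC2, an apical export pump (0.39). Of 32 HNF4 target genes 2 passed, both higher, RBP4, the plasma carrier of retinol (1.28), and CIDEC, a lipid droplet protein (0.90). Of 23 liver and gut transcription factors 1 passed (CEBPA, 0.31), of 14 other tetraspan genes 1 (TSPAN7, 0.38) and of 12 genes of bile acid sensing none, 2 of them at an unadjusted p under 0.05 in limma, as 11.6% of all genes were. Over all genes 1.32% passed as higher and 0.885% as lower. The list medians were 0.09 for bile acid synthesis and transport, 0.04 for HNF4 targets, 0.08 for transcription factors, 0.07 for tetraspans and -0.0019 for bile acid sensing, beside 0.0070 for all genes. These lists were written with results of this comparison known, and nothing is read from their counts in it.

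In A549 at 6 h the tetraspan list had the most calls, with 6 of 14 higher and 1 lower, where 11.6% of all genes were called higher and 1.51% lower. Among them were TSPAN8 (0.37 ± 0.10, adjusted p = 0.0150), TM4SF1 (0.33 ± 0.07, adjusted p = 0.00619) and TM4SF18 (0.29 ± 0.07, adjusted p = 0.00863), with TSPAN12 lower (-0.33 ± 0.11, adjusted p = 0.0472). After quantile normalization TSPAN8 alone passed, and the list median went to -0.06 in place of 0.20. Of 26 genes of bile acid synthesis and transport 3 rose, a share near that of all genes (ACOX2 0.28, ABCC2 0.27 and the basolateral pump ABCC3 0.23), and 0 did after quantile normalization, where ABCC3 was at -0.01. Of 23 transcription factors 3 rose, also near that share (HHEX 0.32, CEBPB 0.30 and CEBPA 0.25), and again 0 did after quantile normalization. The orphan nuclear receptor NR2F1 of the sensing list (0.48 ± 0.10, adjusted p = 0.00303) and the apolipoprotein gene APOC3 of the HNF4 targets (-0.37 ± 0.10, adjusted p = 0.0159) passed with and without it, at 0.38 and -0.37 with it. Without A549 GSI arrays 3 and 4, 0 genes of any list passed, and NR2F1 was at 0.31 and APOC3 at -0.14. List medians at 6 h were 0.04 for bile acid synthesis and transport, -0.06 for sensing, 0.05 for transcription factors and -0.03 for HNF4 targets, beside 0.02 for all genes. In H460a no gene of the 5 lists passed at either time in limma, with 0 to 6 of a list at an unadjusted p under 0.05 at 24 h and 1 to 5 at 6 h, the threshold that 5.79% and 11.1% of all genes met at those times.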

How the data were processed

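The deposited values are one intensity for each probe set and array, made by the authors with RMA (robust multi-array average) per the submitters' processing notes. They are on a linear scale, as judged from the values, and no source used here gives a version of RMA or its software. Gene tests left out 62 control probe sets, 1801 that carry more than one symbol and 11721 without a symbol. The remaining 41091 probe sets stand for 19775 genes, each represented by its brightest probe set (mean of 32 arrays).

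The log2 intensities, with no further scaling, were fitted as means of 8 groups in limma 3.58.1 (lmFit and eBayes, R 4.3.3), on 31.89 degrees of freedom including 7.888 prior ones. P-values were adjusted over all genes within each comparison (Benjamini-Hochberg, threshold 0.05), and other probe sets over all 41091. Replicate numbers were not taken to pair the arrays. Deviations of same-numbered arrays correlated at -0.27 to 0.28. Differently numbered arrays were not compared, so this does not exclude pairing. No 2 arrays were identical. The number of arrays limits the precision.

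Genes named are all members with every probe set, HES1, up to 4 genes past the threshold from each of 5 pathway lists in each GSI comparison, and the 3 genes most correlated with TM4SF20, SLC51B and SLC51A. The members and lists were chosen with earlier results of these data known. Promoters come from a RefSeq table, and those of 6 of the 7 genes were searched, with HNF4G left out. Alternatives covered the arrays fitted, a filter on low genes, the probe set rule, scaling, eBayes options, array weights, a replicate block, a pseudocount of 16 and leaving out arrays. The tests were tried on simulated data. Figures used matplotlib 3.10.9.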

Additional observations from a re-analysis of the deposited data

Results flagged for a closer look

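The effect of GSI on NR5A2 at 6 h differed between the lines by a test of the difference itself, by 0.87 (log2, A549 minus H460a), on 1 of 4 probe sets (adjusted p = 0.0402 in limma). The call was lost under 5 of the other settings (adjusted p 0.0696 to 0.154) and on leaving out any of 11 of the 16 arrays. SLC51A read 36.7 on H460a vehicle array 4 at 6 h, far from the other 3 arrays of its group (25.6 to 27.2). Dixon's test was run on 56 combinations of gene and group, of which chance picks out about 1 in 20, and it picked out this 1 array. Without that array the difference of SLC51A between GSI and vehicle in H460a at 6 h was -0.14.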

How the results depend on the processing

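The count of 7 genes called kept within 1.5 times its value under 87 of 106 alternatives, A549 at 24 h left out. Of the 63 differences of the 7 genes, 13 changed sign under some alternative or left-out array. None of those tested passed the threshold under the setting reported or the one that turned it, and their reported sizes were at most 0.13 (HNF4G in H460a at 6 h). Only 1 gene, SLC51B, was left to test without genes under the median level: the counts were then 1 in A549 at 6 h, in both time comparisons and in both line comparisons, and 0 for the effect in A549 minus H460a at 6 h. In A549 at 6 h the count of 3 became 0 on its own arrays, 1 by either quantile normalization, 1 with array weights and 0 without GSI arrays 3 and 4. In H460a the count of 0 became 1 with array weights at each time (NR5A2 lower at 6 h, SLC51B higher at 24 h) and 1 by quantile normalization within lines at 24 h. For the effect in A549 minus H460a at 6 h the count of 1 became 0 on its own arrays, with all probe sets in one fit, by quantile normalization over all arrays, with the replicate block and without A549 GSI arrays 3 and 4. The cause of these changes was not tested. On leaving out single arrays the counts ranged over 0 to 3 in A549 at 6 h, 0 to 0 in H460a at 24 h, 0 to 1 in H460a at 6 h, 3 to 5 with time in A549, 1 to 3 with time in H460a, 5 to 5 between lines at either time and 0 to 1 for the effect difference. In A549 at 24 h, where nothing was tested, genes whose arrays did not overlap numbered 4, 1 without genes under the median level and 4 to 5 on leaving out single arrays.

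The replicate block, for numbers not shown to pair the arrays, gave 2 in A549 at 6 h (SLC51B adjusted p = 0.0566). With time in H460a it gave 2 (TM4SF4 adjusted p = 0.0624) and, for NR5A2 in the effect difference, adjusted p = 0.0696. No other count moved. All genes called in A549 at 6 h numbered 2600, against 557 and 442 by quantile normalization over all arrays and within lines, 29 on its own arrays and 10 without GSI arrays 3 and 4. The list counts by quantile normalization and without those arrays were chosen after seeing the data. Signal over background limits SLC51A and HNF4G, and NR5A2 in H460a.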
